A study of Homo sapiens with 12 samples.

Results

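The amino acid transporters are 59 of the 18132 genes measured in 2 urothelial carcinoma lines with and without ectopic HOTAIR, a long noncoding RNA. They were taken by symbol, as every gene of the SLC1A, SLC3A, SLC6A, SLC7A, SLC36A, SLC38A and SLC43A families that had at least 1 probe set annotated to a single gene. In all, 169 probe sets stood for them. This choice was made with earlier results of these data known. No filter on low signal was used, so all 59 genes were tested.

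Stable clones were made by transfection with a HOTAIR plasmid or with the empty vector and by selection with puromycin, and all cells were grown in DMEM with 10% FCS. The 4 groups were VM-CUB1_HOTAIR 20 (clone 20), its vector control VM-CUB1_LV, 5637_HOTAIR 4 (clone 4) and its vector control 5637_LV, each with 3 arrays. For replicates 2 and 3 of both 5637 groups the source name gives another number for the line, whereas title, description and cell line label all give 5637, which was followed. The arrays of a group carried separate RNA preparations of 1 clone, so a p-value covers only the variation among preparations, and a difference between HOTAIR and vector cannot be told apart from a difference between clones. Each deposited log2 value is relative to the median of its probe set over the 6 arrays of a line. A value of 1 therefore lies 2-fold above that median, no value is an expression level, and neither genes nor lines can be ranked by level. A gene's value is the mean of its probe sets, a change is the HOTAIR mean minus the vector mean on the log2 scale, and a gene is said to have risen or fallen where limma gave an adjusted p under 0.01 over all 18132 genes.

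Cells take up and release amino acids through families of membrane carriers that differ in substrate and in what drives them. Sodium-coupled carriers such as those of the SLC38A family and SLC1A5 bring in glutamine and small neutral amino acids. The SLC7A light chains work as exchangers bound to a heavy chain, SLC3A2 or SLC3A1, and trade, for example, intracellular glutamine for extracellular leucine, or glutamate for cystine. Leucine and arginine in the cell keep the growth kinase mTORC1 active at the lysosome, and many tumours, urothelial carcinoma included, express SLC7A5 and SLC3A2. Transcription of several transporters rises through the factor ATF4 when amino acids run short, and that of SLC7A11 through NRF2 under oxidative stress.

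The promoters of SLC3A2 and SLC7A5, the heavy and light chain of the leucine exchanger, are shown because both genes fell in both lines, those of SLC38A5 and SLC43A1 because the former had the widest change of any member in either line and the latter the highest rise in VM-CUB1. The sequences are RefSeq promoters of build GRCh38.p14, from 250 bases before to 50 bases after the annotated start, 5′ to 3′ on the strand of the gene. They lie at chr11:62881449-62881748 (plus strand, SLC3A2), chr16:87869458-87869757 (minus strand, SLC7A5), chrX:48470211-48470510 (minus strand, SLC38A5) and chr11:57515653-57515952 (minus strand, SLC43A1). Capitals mark matches to CARE, the ATF4 element searched as TGATGNAA, and to ARE, the NRF2 element searched as TGACNNNGC, on either strand.
SLC3A2: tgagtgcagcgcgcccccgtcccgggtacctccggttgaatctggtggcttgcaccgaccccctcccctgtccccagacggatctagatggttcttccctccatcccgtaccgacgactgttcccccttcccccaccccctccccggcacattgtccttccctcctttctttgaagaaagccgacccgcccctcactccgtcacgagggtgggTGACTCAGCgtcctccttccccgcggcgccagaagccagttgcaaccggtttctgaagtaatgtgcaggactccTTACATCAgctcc
SLC7A5: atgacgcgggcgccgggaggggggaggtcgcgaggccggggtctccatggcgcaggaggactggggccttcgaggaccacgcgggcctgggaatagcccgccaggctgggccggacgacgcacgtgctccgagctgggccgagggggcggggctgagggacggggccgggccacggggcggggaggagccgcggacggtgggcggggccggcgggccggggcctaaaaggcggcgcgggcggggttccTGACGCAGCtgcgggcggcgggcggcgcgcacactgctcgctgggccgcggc
SLC38A5: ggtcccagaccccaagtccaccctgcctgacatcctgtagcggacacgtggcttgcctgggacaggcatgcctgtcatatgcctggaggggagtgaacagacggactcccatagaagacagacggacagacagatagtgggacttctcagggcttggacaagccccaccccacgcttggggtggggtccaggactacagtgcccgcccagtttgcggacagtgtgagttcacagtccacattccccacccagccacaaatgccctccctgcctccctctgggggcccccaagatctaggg
SLC43A1: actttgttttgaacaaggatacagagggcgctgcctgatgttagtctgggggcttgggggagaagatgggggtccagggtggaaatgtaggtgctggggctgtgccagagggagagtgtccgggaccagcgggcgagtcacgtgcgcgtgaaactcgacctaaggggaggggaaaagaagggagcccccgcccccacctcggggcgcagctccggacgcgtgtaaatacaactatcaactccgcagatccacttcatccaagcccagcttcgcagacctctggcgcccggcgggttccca
In SLC3A2, ARE matched at -37 to -29 from the start site and CARE, on the opposite strand, at 38 to 45. In SLC7A5, ARE matched at -2 to 7, across the start, and the SLC38A5 and SLC43A1 windows held neither element. The letters of ARE can hold TGACTCA, the AP-1 element, as they do in SLC3A2. Of the 59 genes, 45 had a promoter in the table. CARE matched 4 of those 45 (8.89%: SLC1A3, SLC3A2, SLC7A1 and SLC38A1) and 3.62% of all 35116 promoters. ARE matched 5 of 45 (11.1%: SLC3A2, SLC7A1, SLC7A5, SLC7A6 and SLC7A7) and 13.3% of all promoters. A match is a run of letters and not a site known to be bound.

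HOTAIR itself is not analysed here, so the ectopic transcript was not checked on these arrays. Arrays of the same group correlated across genes at 0.918 to 0.948 in VM-CUB1 and at 0.775 to 0.848 in 5637, and the values of an array were more widely spread in VM-CUB1 (SD 0.432 to 0.448 across genes) than in 5637 (0.224 to 0.254). Since the values hold no level, presence of urothelial markers could not be tested. Of 13 epithelial markers, 9 changed in VM-CUB1 and 5 in 5637, beside 41.6% and 29.9% of all genes. In VM-CUB1, 6 fell, among them KRT19 (-8.88), EPCAM (-8.21), KRT5 (-7.17) and CDH1 (-3.79). The 3 that rose there were GATA3 (3.04), KRT18 (0.71) and KRT8 (0.37). In 5637, 4 rose, CDH1 (1.04), KRT5 (0.84), KRT18 (0.46) and KRT8 (0.24). Only 3 rises were called there when any array but 5637_LV replicate 1 was left out. The 1 that fell in 5637, GATA3 (-0.26), lost its call without replicate 1 or 3 of either 5637 group. Of 16 markers of other cell types, 2 were called in VM-CUB1, both lower, and 3 in 5637, all higher, both below the shares of all genes. Those counts fell to 1 without VM-CUB1_HOTAIR 20 replicate 1 or 2, and to 1 in 5637 when replicate 1 or 3 of the HOTAIR arrays or replicate 1 or 2 of the vector arrays was left out. The part of either list in the results was not tested.

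In VM-CUB1, 20 of the 59 transporters (33.9%) changed with HOTAIR, 8 upwards and 12 downwards. Over all genes 41.6% were called (21.1% higher, 20.5% lower), so the transporters did not change more often than genes did in general. The median change was -0.06 among the transporters and -0.03 over all genes. A change of at least 2-fold was called for 7 transporters (11.9%) beside 11.7% of all genes. The HOTAIR and vector arrays did not overlap for 27 transporters (45.8%), and for 58% of all genes.

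In 5637, 15 transporters (25.4%) changed, 7 upwards and 8 downwards, where 29.9% of all genes were called (14.7% higher, 15.2% lower). The median change was 0.01 beside -0.04 over all genes. At least a 2-fold change was called for 3 transporters (5.08%), SLC38A5, SLC6A15 and SLC7A11, and for 3.74% of all genes. Groups did not overlap for 27 transporters (45.8%), beside 51.3% of all genes.

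**Figure D1:**
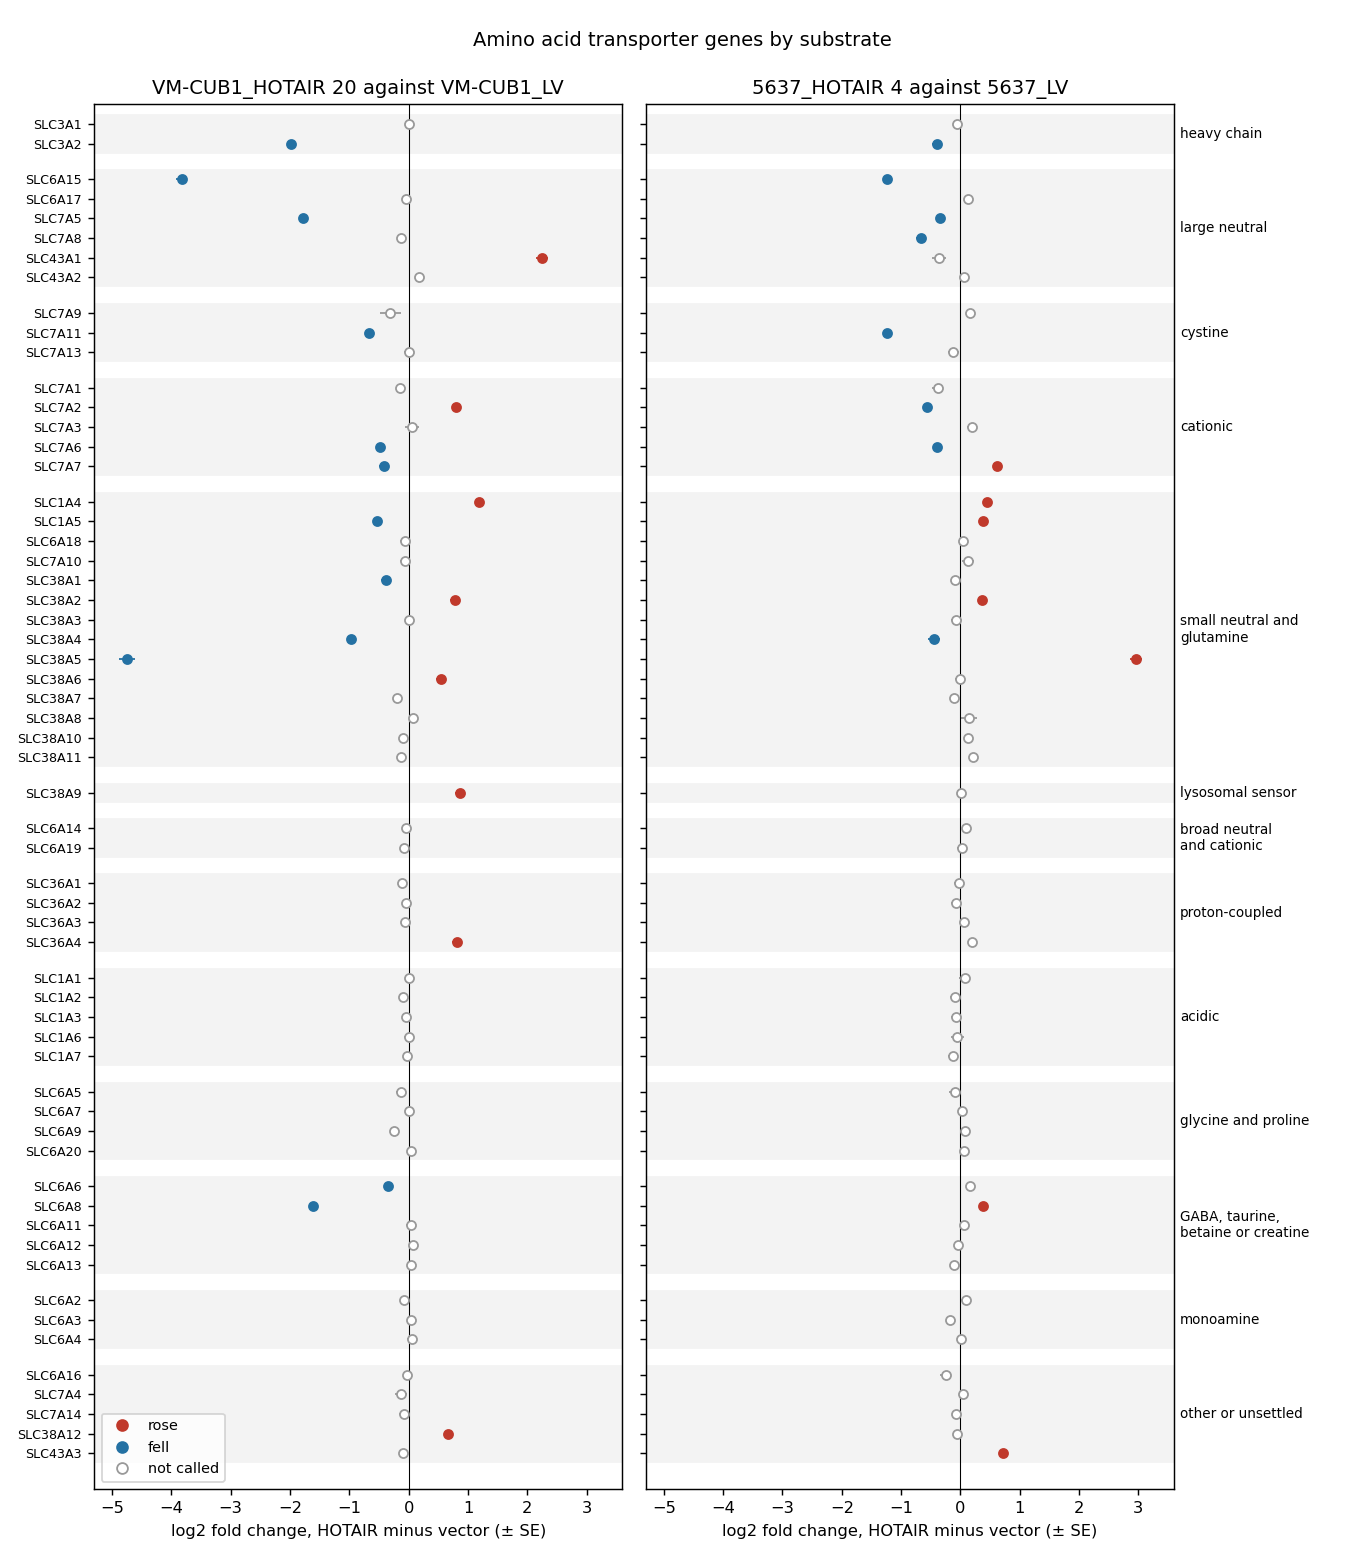
Log2 fold change (HOTAIR minus vector, ± SE, 3 arrays against 3) of all 59 transporters, ordered by substrate, in VM-CUB1 (left) and 5637 (right); filled red and blue points rose and fell at an adjusted p under 0.01, open points were not called. Changes run from -4.75 (SLC38A5) to 2.25 (SLC43A1) in VM-CUB1 and from -1.23 to 2.96 (SLC38A5) in 5637, and the acidic, glycine and proline, and monoamine groups hold open points only.

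The leucine exchanger of SLC3A2 (4F2hc, CD98) and SLC7A5 (LAT1) fell in both lines, about 4-fold and over 3-fold in VM-CUB1 and much less in 5637. SLC3A2 stood at 0.94, 1.04 and 0.98 in the VM-CUB1 vector arrays and at -1.0, -1.03 and -0.95 in the HOTAIR arrays. All 3 HOTAIR values lay below all vector values, a change of -1.98 ± 0.055 (SE; 3.94-fold, adjusted p = 1.7e-08), and each of its 7 probe sets fell, by between 1.87 and 2.09. In 5637 the vector arrays gave 0.1, 0.4 and 0.26 and the HOTAIR arrays -0.19, -0.11 and -0.15. The groups again did not overlap, but the change was only -0.4 ± 0.077 (1.32-fold, adjusted p = 0.0033), and it lost its call without 5637_HOTAIR 4 replicate 1 or 3 or without 5637_LV replicate 3 (-0.48 to -0.33 over all single omissions).

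SLC7A5 gave 0.78, 0.96 and 0.92 in VM-CUB1 vector arrays against -0.88, -0.87 and -0.9 with HOTAIR. That was a fall of 3.43-fold (-1.78 ± 0.062, adjusted p = 6.8e-08), and its 2 probe sets, at -2.44 and -1.11, both fell though by unequal amounts. The 5637 vector arrays read 0.17, 0.12 and 0.13 and the HOTAIR arrays -0.13, -0.24 and -0.26, a separation of only -0.35 ± 0.054 (adjusted p = 0.001). The fall was deeper in VM-CUB1 than in 5637 for both chains, with a difference (VM-CUB1 minus 5637) of -1.58 ± 0.095 for SLC3A2 (adjusted p of the difference 1.3e-08) and of -1.43 ± 0.08 for SLC7A5 (6.2e-09). SLC7A5 has near-identical pseudogene copies, whose transcripts its probe sets may also detect.

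Of the other light chains of SLC3A2, SLC7A11 (xCT, the cystine and glutamate exchanger that feeds glutathione synthesis) fell in both lines. Its VM-CUB1 values were 0.28, 0.34 and 0.43 with vector and -0.39, -0.29 and -0.28 with HOTAIR, and its 5637 values were 0.49, 0.72 and 0.81 with vector and -0.51, -0.55 and -0.6 with HOTAIR. No array of one group reached into the other in either line. The changes were -0.67 ± 0.062 in VM-CUB1 (1.59-fold, adjusted p = 2.7e-05) and -1.23 ± 0.083 in 5637 (2.34-fold, 1.1e-05), and all 3 probe sets fell in each line. Here 5637 had the deeper fall, with a difference of 0.56 ± 0.107 (adjusted p = 6.0e-04) that lost its call when probe sets ending in _s_at or _x_at, which can match other genes, were left out (0.48).

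SLC7A6 (y+LAT2), which exchanges cationic for neutral amino acids, fell in both lines (-0.48 ± 0.06 and -0.4 ± 0.066). The difference between lines did not pass the test, but different probe sets were called in the 2 lines. In VM-CUB1, 2 of 3 fell (-0.7 and -0.62) while the other lay at -0.1, and in 5637 SLC7A6 had only that other one called (-0.46). Its relative SLC7A7 (y+LAT1) fell in VM-CUB1 (-0.41 ± 0.083, adjusted p = 0.0032, lost without VM-CUB1_HOTAIR 20 replicate 1 or VM-CUB1_LV replicate 2, -0.48 to -0.33) and rose in 5637 (0.62 ± 0.07, 1.9e-04). SLC7A8 (LAT2), a neutral amino acid exchanger, fell in 5637 (-0.66 ± 0.084), where 1 of its 4 probe sets gave -2.4 and the others lay near 0, so that the median of its probe sets was not called. In VM-CUB1 it was at -0.13 (adjusted p = 0.068). Its difference between lines (0.53) also lost its call with the median of probe sets. That difference was 2.2 in 1 probe set and -0.1 to 0.06 in the others. SLC7A10 and SLC7A13, further light chains, and SLC3A1 and SLC7A9, the pair that carries cystine and dibasic amino acids in kidney and gut, passed the test in neither line.

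**Figure D2:**
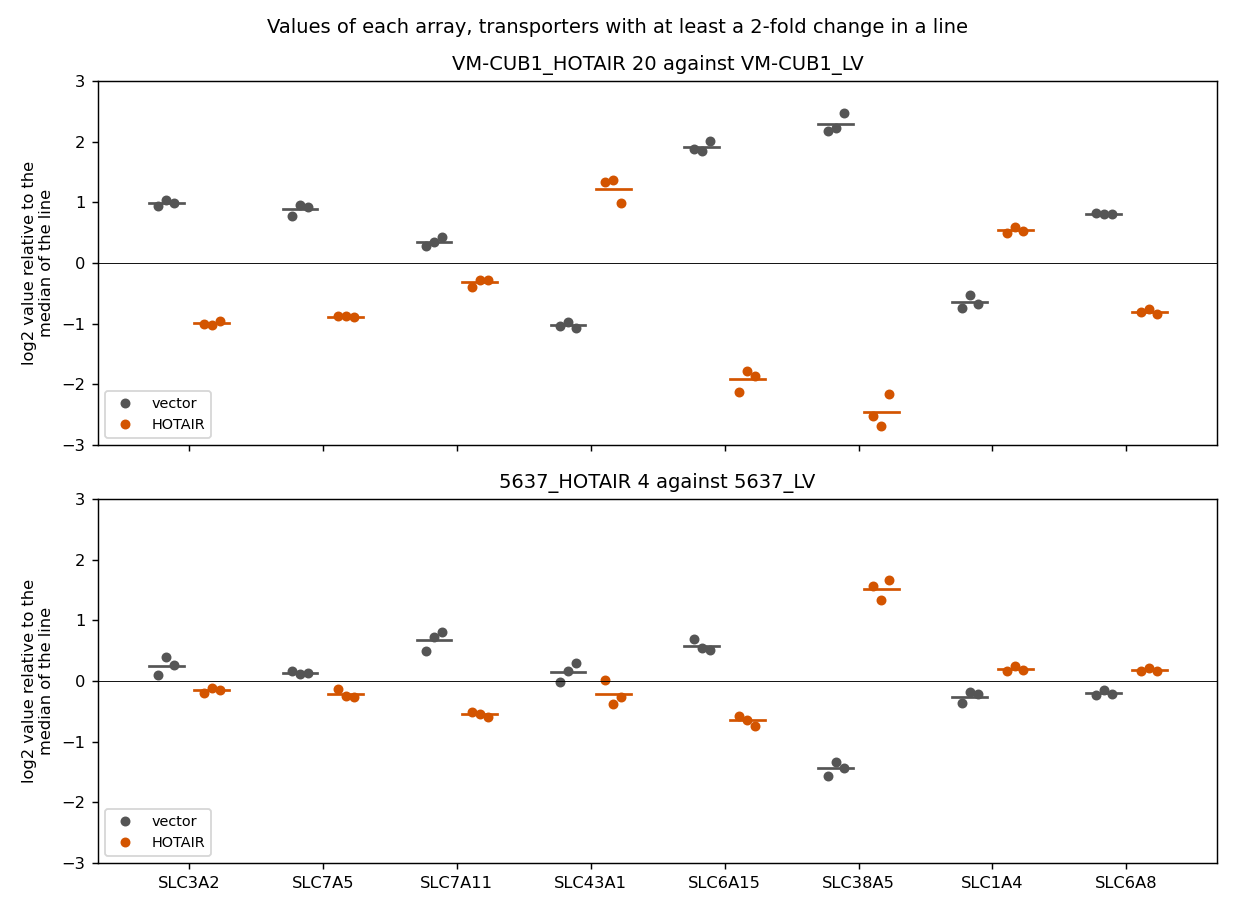
Log2 value of each array, relative to the median of the line, for the 8 transporters with a called change of at least 2-fold in either line; grey points are vector arrays, orange points HOTAIR arrays and bars their means (3 arrays each). For SLC38A5 the vector arrays lie above the HOTAIR arrays in VM-CUB1 (2.17 to 2.47 against -2.69 to -2.17) and below them in 5637 (-1.57 to -1.34 against 1.34 to 1.66), while SLC43A1 separates the groups in VM-CUB1 only.

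SLC38A5 (SNAT5), a system N carrier of glutamine, asparagine, histidine and serine, had the widest change of the 59 genes in each line, in opposite directions. In VM-CUB1 the vector arrays gave 2.17, 2.22 and 2.47 and the HOTAIR arrays -2.53, -2.69 and -2.17. This 26.9-fold fall (-4.75 ± 0.136, adjusted p = 2.2e-08) stood against a 7.8-fold rise in 5637 (2.96 ± 0.094, 2.8e-07), where vector arrays gave -1.57, -1.34 and -1.43 and HOTAIR arrays 1.57, 1.34 and 1.66. The groups were far apart in both lines, and the VM-CUB1 change minus the 5637 change was -7.71 ± 0.183 (adjusted p = 1.7e-12). The gene was read by 1 probe set.

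SLC1A4 (ASCT1), a carrier of alanine, serine and cysteine, rose in both lines. It moved from -0.75, -0.53 and -0.68 with vector to 0.5, 0.6 and 0.52 with HOTAIR in VM-CUB1, and from -0.37, -0.18 and -0.22 to 0.16, 0.25 and 0.18 in 5637. The groups were apart in each line, with changes of 1.19 ± 0.07 (2.29-fold, adjusted p = 1.5e-06) and 0.45 ± 0.063 (1.37-fold, 6.1e-04), larger in VM-CUB1 by 0.74 ± 0.095 (1.9e-05). Its 6 probe sets disagreed on the size, from 0.15 to 2.5 in VM-CUB1 and from 0.05 to 0.92 in 5637, and with their median in place of their mean the call in 5637 and that of the difference were lost.

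SLC1A5 (ASCT2), the glutamine carrier of the same family, moved in opposite directions and by less. Its vector arrays in VM-CUB1 stood at 0.32, 0.21 and 0.28 and its HOTAIR arrays at -0.26, -0.26 and -0.24, a fall of 0.53 ± 0.054 on the log2 scale (adjusted p = 5.0e-05). With vector in 5637 it read -0.17, -0.16 and -0.24, and with HOTAIR 0.14, 0.25 and 0.21, a rise of 0.38 ± 0.053 (5.7e-04). All 3 probe sets went the same way within a line, and the difference between lines was -0.91 ± 0.071 (1.6e-07).

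SLC38A2 (SNAT2), a system A importer that cells induce when starved of amino acids, rose in both lines. Vector and HOTAIR arrays of VM-CUB1 gave -0.35, -0.49 and -0.32 against 0.29, 0.37 and 0.52, and those of 5637 gave -0.16, -0.2 and -0.2 against 0.17, 0.21 and 0.19. Neither pair of groups overlapped, and each of 3 probe sets rose in each line. The rises were 0.78 ± 0.078 (1.72-fold, adjusted p = 4.3e-05) and 0.37 ± 0.046 (1.3-fold, 3.1e-04), larger in VM-CUB1 by 0.4 ± 0.091 (0.0021), a difference that was not called after quantile normalisation (0.16, adjusted p = 0.12).

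Among the other carriers of small neutral amino acids and glutamine, SLC38A4 (SNAT4), known from liver, fell in both lines (-0.98 ± 0.056 and -0.44 ± 0.103). In VM-CUB1 that mean rested on 1 of 3 probe sets, which fell by 2.93 while the others lay at -0.08 and 0.06, and the median of the probe sets was not called. The call of SLC38A4 in 5637 (adjusted p = 0.0091) was lost under 9 alternatives, among them leaving out any of the 5637_HOTAIR 4 arrays or 5637_LV replicate 2 (-0.51 to -0.31). The difference between lines for SLC38A4 (-0.54) turned with the median of probe sets (0.3, adjusted p = 0.076) and was not called after quantile normalisation (-0.14, 0.68). SLC38A1 (SNAT1), another system A importer, fell in VM-CUB1 (-0.38 ± 0.08, adjusted p = 0.0038), a call lost without VM-CUB1_HOTAIR 20 replicate 2 or 3 or without VM-CUB1_LV replicate 2 or 3 (-0.45 to -0.34), and stood at -0.09 in 5637. SLC38A6 (SNAT6) rose in VM-CUB1 (0.55 ± 0.083, adjusted p = 5.5e-04, and 0.013 with the methods' t-test) and was at -0.01 in 5637, a difference of 0.56 that was not called after quantile normalisation (0.42, 0.016). SLC38A3, SLC38A7, SLC38A8, SLC38A10, SLC38A11, SLC6A18 and SLC7A10 passed in neither line. However, 1 of the 4 probe sets of SLC38A7 was called lower in both lines (-0.55 in VM-CUB1, -0.36 in 5637). Of the 2 of SLC38A10, 1 was called lower in VM-CUB1 (-0.55) and the other higher in 5637 (0.33). In all, 7 of the 14 genes of this substrate group changed in VM-CUB1 (3 upwards, 4 downwards) and 5 in 5637 (4 upwards, 1 downwards). These were 50% and 35.7% of the group, beside 41.6% and 29.9% of all genes. The 1 fall in 5637 was that of SLC38A4.

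**Figure D3:**
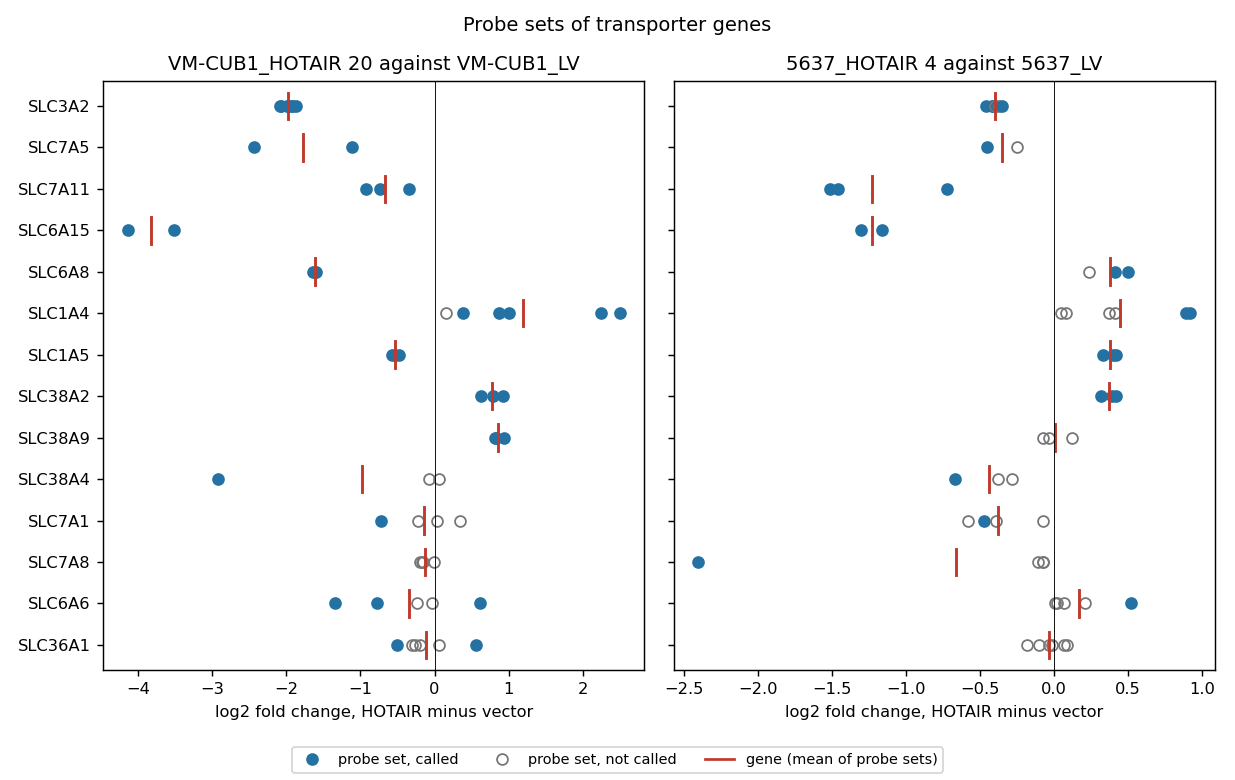
Log2 fold change of each probe set (circles, filled where called) and of the gene mean (red line) for 14 transporters with more than 1 probe set, in VM-CUB1 (left) and 5637 (right, on a narrower axis). The 7 probe sets of SLC3A2 lie close together at -2.09 to -1.87 in VM-CUB1, whereas those of SLC1A4 spread from 0.15 to 2.5 and 1 probe set of SLC38A4 stands apart at -2.93.

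The carriers of large neutral amino acids included the second and the third of the wide changes in VM-CUB1. SLC6A15 (B0AT2), a sodium-coupled carrier of branched-chain amino acids and proline best known from brain, read 1.88, 1.84 and 2.01 in VM-CUB1 vector arrays and -2.13, -1.78 and -1.86 with HOTAIR. In 5637 it read 0.69, 0.54 and 0.51 with vector and -0.57, -0.64 and -0.74 with HOTAIR. It thus fell in both lines without overlap, 14.2-fold in VM-CUB1 (-3.83 ± 0.095, adjusted p = 1.0e-08) and 2.35-fold in 5637 (-1.23 ± 0.069, 4.5e-06), and both probe sets fell in each line. The fall was deeper in VM-CUB1 (difference -2.6 ± 0.125, 1.5e-09), although this difference vanished (0.04) when all arrays were quantile normalised to equal spread.

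SLC43A1 (LAT3), a sodium-independent uniporter of leucine and other large neutral amino acids, had the highest rise of the transporters in VM-CUB1. Its vector arrays gave -1.04, -0.98 and -1.07 and its HOTAIR arrays 1.33, 1.36 and 0.98, all 3 well above the vector arrays (2.25 ± 0.101, 4.75-fold, adjusted p = 2.8e-07). In 5637 the vector arrays gave -0.01, 0.17 and 0.29 and the HOTAIR arrays 0.01, -0.38 and -0.26, so that the groups overlapped (-0.36 ± 0.112, adjusted p = 0.032). The difference between lines was 2.61 ± 0.164 (2.0e-08), and 1 probe set read the gene. SLC43A2 (LAT4), its closest relative by substrate, and SLC6A17, a vesicular carrier of neurons, passed in neither line. Within the group of 6 large neutral carriers, VM-CUB1 therefore had 1 rise (SLC43A1) and 2 falls (SLC6A15, SLC7A5). The 3 calls in 5637 (SLC6A15, SLC7A5, SLC7A8) were all falls. The share called was 50% in each line, beside 41.6% of all genes in VM-CUB1 and 29.9% in 5637.

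Of the carriers of arginine and lysine, SLC7A2 (CAT2) rose in VM-CUB1 (0.8 ± 0.056, adjusted p = 4.2e-06) and fell in 5637 (-0.57 ± 0.057, 9.4e-05), a difference of 1.37 ± 0.076 (5.8e-09). SLC7A1 (CAT1), the widespread form, gave -0.02, 0.15 and 0.22 with vector and 0.08, -0.09 and -0.06 with HOTAIR in VM-CUB1. In 5637 it gave 0.09, 0.48 and 0.23 with vector and -0.12, -0.13 and -0.09 with HOTAIR. The groups overlapped in VM-CUB1 (-0.14 ± 0.079, adjusted p = 0.19). They were apart in 5637, where the change still missed the threshold (-0.38 ± 0.093, 0.012) and passed it without 5637_LV replicate 1 (-0.46). The 4 probe sets of SLC7A1 ran from -0.72 to 0.35 in VM-CUB1, and the lowest of them was called there and in 5637 (-0.47). SLC7A3 (CAT3) passed in neither line (0.05 and 0.19).

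At the lysosome, SLC38A9, which senses arginine for mTORC1, rose in VM-CUB1 from -0.35, -0.59 and -0.46 with vector to 0.33, 0.42 and 0.44 with HOTAIR. All 3 of its probe sets rose there (gene mean 0.86 ± 0.071, 1.82-fold, adjusted p = 1.2e-05). In 5637 the vector arrays at 0.09, -0.07 and -0.03 overlapped the HOTAIR arrays at 0.06, -0.01 and -0.05 (0.01 ± 0.061, adjusted p = 0.96), and the lines differed by 0.86 ± 0.095 (4.6e-06). Of the 4 SLC36A carriers, SLC36A4 (PAT4, a carrier of proline and tryptophan) rose in VM-CUB1 (0.81 ± 0.072, adjusted p = 2.1e-05) and stood at 0.19 in 5637 (0.017). SLC36A1 (PAT1), a lysosomal exporter of small amino acids, had a gene mean of -0.11 in VM-CUB1 while single probe sets of it passed the test in both directions.

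In the SLC6A family 3 of 18 genes changed in VM-CUB1 (16.7%) and 2 in 5637 (11.1%), beside 41.6% and 29.9% of all genes. SLC6A15 was among the changed genes in both lines. SLC6A8, the creatine carrier, stood at 0.82, 0.8 and 0.81 in the VM-CUB1 vector arrays and at -0.81, -0.76 and -0.85 with HOTAIR, and at -0.23, -0.15 and -0.22 in the 5637 vector arrays and 0.17, 0.21 and 0.17 with HOTAIR. The groups were apart in both lines and in opposite order, with a 3.06-fold fall in VM-CUB1 (-1.62 ± 0.052, adjusted p = 3.9e-08), a 1.3-fold rise in 5637 (0.38 ± 0.048, 3.5e-04) and a difference of -2.0 ± 0.064 (2.8e-11). SLC6A8 has a near-identical pseudogene, which its probe sets may also detect, and without probe sets ending in _s_at or _x_at the rise in 5637 (0.24) was not called. SLC6A6, the taurine carrier, fell in VM-CUB1 (-0.35 ± 0.055, adjusted p = 6.7e-04), but of its 5 probe sets 1 rose, 2 fell and 2 were not called, and in 5637 it stood at 0.17 (0.037).

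The substrate groups in which no gene passed in either line were the 5 carriers of glutamate and aspartate (SLC1A1, SLC1A2, SLC1A3, SLC1A6 and SLC1A7, -0.13 to 0.07 in 5637 and -0.09 to 0.01 in VM-CUB1), the 4 of glycine and proline (SLC6A5, SLC6A7, SLC6A9 and SLC6A20, -0.25 to 0.07 over both lines), the 3 monoamine carriers and the broad carriers SLC6A14 and SLC6A19. At an unadjusted p under 0.05 in limma, 1 of these genes (SLC6A9) passed in VM-CUB1 and 1 (SLC6A3) in 5637, both lower, and the methods' t-test called 0 of them in either line. Single probe sets were called for SLC1A2 (-0.32 in VM-CUB1) and for SLC6A9 (-0.31 in VM-CUB1 and another at 0.66 in 5637). Without levels it is unknown which genes of these groups were expressed at all. Of the members without a settled amino acid substrate, SLC38A12 rose in VM-CUB1 (0.66 ± 0.057) and SLC43A3, a nucleobase carrier, rose in 5637 (0.71 ± 0.063, all 3 probe sets).

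Set side by side, 13 transporters passed in both lines (18.9% of all genes did), 22 in either and 37 in neither. The 6 that fell in both were SLC3A2, SLC7A5, SLC7A6, SLC7A11, SLC6A15 and SLC38A4, and the 2 that rose in both were SLC1A4 and SLC38A2; over all genes 10.6% were called in the same direction. The 5 with opposite directions were SLC38A5, SLC6A8, SLC1A5 and SLC7A7, lower in VM-CUB1 and higher in 5637, and SLC7A2, which went the other way; over all genes this pattern held for 8.26%. A further 5 rose and 2 fell in VM-CUB1 and were not called in 5637 (SLC43A1, SLC38A9, SLC36A4, SLC38A12 and SLC38A6, and SLC38A1 and SLC6A6), and SLC43A3 rose and SLC7A8 fell in 5637 and were not called in VM-CUB1. Of these, SLC36A4 was also called higher in 5637 with arrays centred on their median or quantile normalised (0.21 each), and SLC43A1 was called lower there without 5637_HOTAIR 4 replicate 1 (-0.47). The difference itself passed the test for 22 transporters (37.3%; 10 higher and 12 lower in VM-CUB1) beside 42% of all genes (21.9% higher, 20.1% lower). It did so for 20 of the 22 genes called in either line, all but SLC7A6 and SLC38A1, and for SLC6A9 and SLC38A11, which were called in neither.

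**Figure D4:**
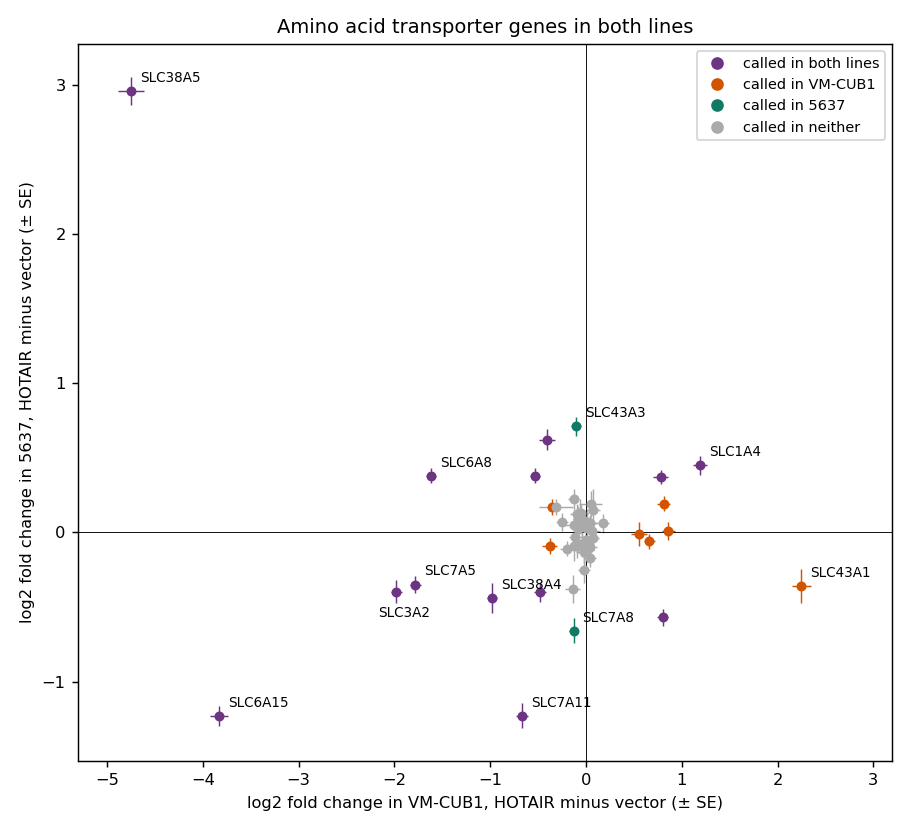
Log2 fold change (HOTAIR minus vector, ± SE) of the 59 transporters in VM-CUB1 (horizontal) and 5637 (vertical), coloured by the lines in which the change was called. SLC38A5 stands alone at the upper left (-4.75 and 2.96), while SLC6A15, SLC3A2, SLC7A5, SLC7A11 and SLC38A4 lie at the lower left, below 0 in both lines.

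Genes that share substrates or pathways with these transporters moved as follows. Of 20 other amino acid carriers, mostly mitochondrial or lysosomal, 12 changed in VM-CUB1 (60%; 7 upwards, 5 downwards) and 7 in 5637 (35%; 3 upwards, 4 downwards), beside 41.6% and 29.9% of all genes. The falls dropped to 3 in VM-CUB1 without any of the 3 VM-CUB1_LV arrays. In 5637 they dropped to 2 when replicate 3 of either group or replicate 1 of 5637_HOTAIR 4 was left out. With any 1 array left out, 5 or 6 rises were called in VM-CUB1, and 2 to 4 rises and 2 or 3 falls in 5637. The changed genes of VM-CUB1 included SLC25A29, a mitochondrial carrier of basic amino acids (1.8 ± 0.082), and SLC25A13, the aspartate and glutamate carrier citrin (-1.21 ± 0.059). They also included SLC15A2, a peptide importer (-1.13 ± 0.089), and SLC25A15, the ornithine carrier (-1.06 ± 0.056). In 5637 SLC15A4, a lysosomal histidine and peptide carrier, rose (1.67 ± 0.072), as it did in VM-CUB1 (0.49 ± 0.05). SLC25A15 also fell in 5637 (-0.89 ± 0.051), and SLC25A29 fell there (-0.59 ± 0.075).

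Of 24 measured genes of amino acid synthesis and use, 20 changed in VM-CUB1 (83.3%; 8 upwards, 12 downwards) and 17 in 5637 (70.8%; 13 upwards, 4 downwards), where all genes gave 41.6% and 29.9%. The genes of this list were chosen with earlier results known, and the shares are a description. Leaving out 1 array gave 7 rises and 8 to 11 falls in VM-CUB1, and 9 to 13 rises in 5637. The 4 falls in 5637 dropped to 2 without 5637_HOTAIR 4 replicate 1 and to 3 when any other array was left out. ASS1, the argininosuccinate synthase by which cells make arginine, fell in VM-CUB1 (-1.78 ± 0.073) and rose in 5637 (3.4 ± 0.074). BCAT1, which transaminates leucine, isoleucine and valine, rose in VM-CUB1 by 2.36 ± 0.051, and PYCR1, of proline synthesis, by 1.72 ± 0.083, while GLUL, glutamine synthetase, fell by 1.51 ± 0.055. In 5637 ARG2, a mitochondrial arginase, rose by 2.61 ± 0.104 and IDO1, which degrades tryptophan, by 2.48 ± 0.115. Both also rose in VM-CUB1 (1.29 ± 0.083 and 0.6 ± 0.064). BCAT1 also rose in 5637 (0.52 ± 0.062), whereas PYCR1 fell there (-0.34 ± 0.045). The median change of the list was -0.2 in VM-CUB1 and 0.25 in 5637, beside -0.03 and -0.04 over all genes.

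The list of glutathione synthesis and turnover held 6 measured genes, GCLC, GCLM, GSS, CHAC1, GPX4 and GSR. Of these, 3 fell in VM-CUB1 (50%, beside 41.6% of all genes) and the others were not called. In 5637, 1 rose and 1 fell (33.3%, beside 29.9% of all genes). The rise was called with all arrays or without 5637_LV replicate 2, and the fall was lost without 5637_HOTAIR 4 replicate 1 or 3. The VM-CUB1 falls included GCLC, the catalytic subunit of the first step of synthesis (-1.94 ± 0.063), and GSR, glutathione reductase (-1.49 ± 0.058). GSR was the gene that rose in 5637 (0.25 ± 0.05). Of 24 measured genes of amino acid sensing by mTORC1, 12 changed in VM-CUB1 (50%; 8 upwards, 4 downwards) and 7 in 5637 (29.2%; 5 upwards, 2 downwards), the latter at the share of all genes (29.9%). The rises dropped to 5 in VM-CUB1 without VM-CUB1_HOTAIR 20 replicate 1 or VM-CUB1_LV replicate 2 or 3, and to 2 or 3 in 5637 without any array but 5637_LV replicate 1. RRAGD, a Rag GTPase of the lysosome, rose in both lines (1.27 ± 0.08 and 2.32 ± 0.091). NPRL2, a subunit of the inhibitory GATOR1 complex, rose in VM-CUB1 (1.66 ± 0.101). MIOS, of GATOR2 (-1.31 ± 0.08), and LAMTOR4, of the Ragulator (-1.16 ± 0.057), fell there. LAMTOR4 also fell in 5637 (-0.55 ± 0.057), where NPRL2 and MIOS were not called.

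**Figure D5:**
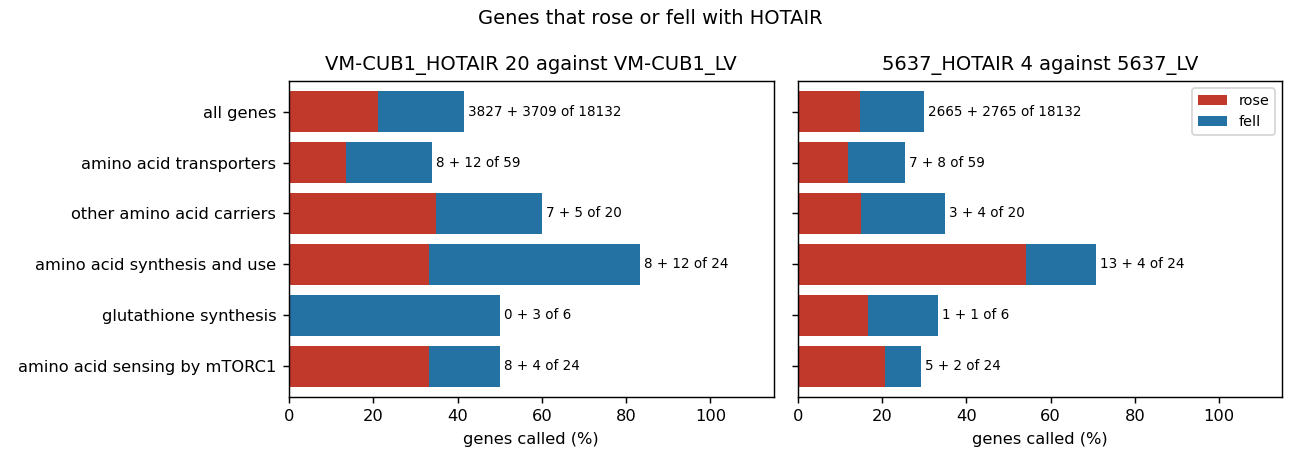
Share of genes that rose (red) or fell (blue) with HOTAIR at an adjusted p under 0.01, in percent, for all 18132 genes, the 59 transporters and 4 related lists in VM-CUB1 (left) and 5637 (right); labels give the number that rose, the number that fell and the number measured. The bar of the transporters is shorter than that of all genes in both lines, and that of amino acid synthesis and use is the longest in both.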

How the data were processed

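RNA of 12 preparations was labelled from 100 ng each (3′ IVT Express) and hybridised to Affymetrix PrimeView arrays. The authors processed the arrays with RMA, per the submitters' notes, in GeneSpring GX, and deposited log2 values per probe set after a baseline transformation. The baseline given in the methods is the median over all samples, whereas the table is centred per line: over its 6 arrays no probe set median lies further from 0 than 5.0e-07. Differences within a line are kept, levels and any offset between lines are lost, and the methods' filter on signal above background could not be repeated. Precision is limited by the number of arrays; the median SE of a transporter's change was 0.072 in VM-CUB1 and 0.067 in 5637.

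Of 49395 probe sets, 102 controls were left out, 44988 had 1 gene symbol in the platform annotation, 1832 several and 2473 none; 27 kept a symbol with no match by gene ID in RefSeq. The mean of the single-symbol probe sets gave 18132 genes. HOTAIR was compared with vector within each line (lmFit and eBayes of limma 3.58.1, R 4.3.3, two-sided), and the difference of the effects as an interaction over 12 arrays (VM-CUB1 minus 5637), with p-values adjusted over the 18132 genes (Benjamini-Hochberg) and called under 0.01, as in the methods. The methods' own test, an unpaired test per gene, was an alternative. On simulated data of 18132 genes, 50 genes were changed by each of 0.5, 1, 2 and 4 and all others left unchanged. In the VM-CUB1 comparison 52%, 96%, 98% and 100% of them were called, and in that of 5637 64%, 94%, 98% and 100%. For the difference it was 32%, 94%, 100% and 100%. Unchanged genes called numbered 0, 3 and 1. In the real data 41.6%, 29.9% and 42% of all genes were called, far more than were changed in the simulation. The adjusted threshold was therefore stricter in the simulation, and its rates do not give those of the real comparisons.

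Every transporter called in a line was named. Array values were given for those with a called change of at least 2-fold in a line and for SLC3A2, SLC7A5, SLC7A11, SLC1A5, SLC38A2, SLC38A9 and SLC7A1 whatever their values. Genes of other lists were named where called at 2-fold or more, at most 4 a list and line, with the value in the other line where also called. Epithelial markers were named beyond this rule. Members and lists were chosen with earlier results of these data known, and lists are described by counts only. Replicate numbers did not pair the samples (correlations of same-numbered arrays -0.045 to 0.083). Tables were made in Python 3.11.15 with pandas 2.3.3 and numpy 2.4.6, and figures with matplotlib 3.10.9.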

Additional observations from a re-analysis of the deposited data

Results flagged for a closer look

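For 20 of the 22 transporters called in a line, the HOTAIR effect differed between the lines by limma's interaction test at an adjusted p under 0.01; 42% of all genes passed it. The differences below are the VM-CUB1 change minus the 5637 change on the log2 scale. Where VM-CUB1 was lower, the value was -7.71 for SLC38A5, -2.6 for SLC6A15, -2.0 for SLC6A8, -1.58 for SLC3A2, -1.43 for SLC7A5, -1.03 for SLC7A7, -0.91 for SLC1A5, -0.81 for SLC43A3, -0.54 for SLC38A4 (turned to 0.3 with the median of probe sets, and not called after quantile normalisation) and -0.52 for SLC6A6. Where VM-CUB1 was higher, it was 2.61 for SLC43A1, 1.37 for SLC7A2, 0.86 for SLC38A9, 0.74 for SLC1A4, 0.71 for SLC38A12, 0.62 for SLC36A4, 0.56 for SLC7A11, 0.56 for SLC38A6, 0.53 for SLC7A8 and 0.4 for SLC38A2. Each group had 3 arrays, too few for a check of single arrays that stand apart.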

How the results depend on the processing

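The counts of called transporters (20 in VM-CUB1, 15 in 5637, 22 for the difference) stayed within 1.5 times under all alternatives but that of keeping only probe sets whose ID ends in _at with no further letter, which measured 29 of the 59 genes and called 6, 4 and 6 of them. Without probe sets ending in _s_at or _x_at, an alternative chosen after seeing the data, 20, 14 and 21 were called. Leaving out 1 array gave 18 to 20, 13 to 17 and 20 to 22, the replicate block 19, 14 and 21, and the methods' t-test 17 and 10, which lost SLC7A7, SLC38A1 and SLC38A6 in VM-CUB1 and SLC1A4, SLC3A2, SLC7A6, SLC7A8 and SLC38A4 in 5637. Of the named calls, 16 of 20 in VM-CUB1, 9 of 15 in 5637 and 13 of 20 differences were kept under all alternatives in which they were tested. Genes without a probe set whose ID ends in _at alone, such as SLC3A2 and SLC38A5, were not tested under that alternative. For genes with 1 probe set, such as SLC38A5, the median of probe sets equals the mean and is no separate check. Values near 0 turned in SLC38A6 in 5637 (0.01 with arrays centred, 0.02 quantile normalised, -0.07 to 0.06 leaving out 1 array) and SLC38A9 in 5637 (-0.03 without _s_at and _x_at probe sets, -0.03 to 0.05 leaving out 1 array). Quantile normalisation, which by construction gives both lines 1 distribution of values, turned the differences of SLC6A15 (0.04) and SLC7A6 (0.12) and lost the calls of those of SLC38A2, SLC38A4 and SLC38A6. The median of probe sets turned the difference of SLC38A4 (0.3) and lost the calls of those of SLC1A4 and SLC7A8. Keeping only IDs ending in _at alone turned the difference of SLC7A1 (-0.16). The cause was not tested. A filter on low signal was not run, since the values hold no level.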
